A study of Mus musculus with 4 samples.

Results

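The cells described here are Lyz2-positive tumor-infiltrating myeloid cells that carried transcripts of *Hilpda*, *Egln3*, *Vegfa*, *Nos2* and *Inhba*, a set of genes linked to hypoxic macrophages. They were chosen from CD45+ cells of B16-F10 melanomas, among cells in which at least 1000 and at most 5999 genes were seen and mitochondrial genes gave under 10% of the UMIs (unique molecular identifiers, each standing for a captured RNA molecule). A member had a summed count of at least 3 UMIs for these 5 genes, at least 5 *Lyz2* UMIs, at most 1 UMI over *Cd3d*, *Cd3e* and *Cd3g*, 0 *Ncr1* UMIs and at most 2 UMIs over *Mki67* and *Top2a*. The rule found 836 members among 8822 cells, 827 of 4123 in the ZsG-positive library and 9 of 4699 in the ZsG-negative library. Reference cells met the same limits with a 5-gene sum of 0, and there were 1317 of them in the ZsG-positive library and 233 in the ZsG-negative library. A further 773 ZsG-positive cells with a sum of 1 or 2 belonged to neither group.

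All tumors were grown subcutaneously in wild-type C57BL/6 mice from B16 ZsGreen+ cells, a clone of the B16-F10 melanoma line in which doxycycline switches on the soluble green protein ZsGreen (ZsG), so that ZsG in an immune cell came from the tumor. Doxycycline was given in the drinking water for 4 days, tumors were taken on day 8, and CD45+ cells were sorted into a ZsG-negative and a bright ZsG-positive gate. By the study's own account, most ZsG-positive lymphocytes were too dim for the bright gate and fell into the ZsG-negative one. A separate sort of T cells from such tumors, gated on CD45 and TCRb by the labels but on CD45 and CD3 by the study's methods, gave another pair of libraries (droplet capture of transcript 3′ ends). Each gate gave 1 library, with no replicate and no label naming the mice in it, so no comparison below has a test. The 95% intervals are exact Poisson for levels, exact binomial (Clopper-Pearson) for shares of cells and exact conditional for ratios, and they cover counting error only.

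Cells short of oxygen stabilize hypoxia-inducible factors (HIF), which pair with ARNT and bind short DNA sequences near genes for glucose uptake, glycolysis, mitophagy, oxygen sensing and blood vessel growth. HIF is held down in oxygenated cells by prolyl hydroxylases such as EGLN1 and EGLN3, which mark it for the VHL ubiquitin ligase, and the hydroxylase genes are themselves HIF targets. Macrophages in poorly perfused tumor areas are known for VEGF-A, a growth factor for blood vessels, and for inducible nitric oxide synthase (*Nos2*), an enzyme that uses arginine.

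The core letters bound by HIF are ACGTG, and a common variant has GCGTG in their place. The 250 bases before the start of each gene were searched for them on both strands. The reverse complement of the core reads CACGT in the gene's own direction, and that of the variant reads CACGC there. A stretch reading CACGTG therefore counts on both strands. Of 27025 mouse genes with a promoter in the RefSeq sequences used (build GRCm38.p6), 38.6% held a match. The stretches below each show 1 match, in capitals, for 5 genes of the hypoxia and glycolysis lists with a ratio of at least 2-fold in members, for the rule gene *Egln3*, and for *Car9* and *Pfkfb4*, targets whose levels differed little. Each is written 5′ to 3′ on the gene's own strand. The search used RefSeq start sites, which differ for some genes from the gene limits printed elsewhere (GENCODE), so the stretches of *Ero1l* and *Slc2a1* overlap those limits.
Slc2a1 (chr4:119108699-119108723, plus strand): cccgccccggACGTGctccccaggc
Bnip3 (chr7:138909527-138909551, minus strand): ctccgccgccGCGTGcgtcccgccc
Ero1l (chr14:45318621-45318645, minus strand): cgcgccgctgCACGTccgcagggga
Egln1 (chr8:124949308-124949332, minus strand): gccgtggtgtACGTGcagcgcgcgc
Ddit4 (chr10:59951871-59951895, minus strand): cctggaggggGCGTGgcctcgccgg
Egln3 (chr12:54204089-54204113, minus strand): tgcatctcagACGTGagatccaggt
Car9 (chr4:43506998-43507022, plus strand): atttccgatgCACGTacagcccgtc
Pfkfb4 (chr9:108991775-108991799, plus strand): gacggatgggGCGTGcttagtccaa
Matches were found in 10 of 12 promoters of the list genes past 2-fold (83.3%) and in 10 of 11 of the other tested genes of that list (90.9%). The glycolysis list had matches in 12 of 17 promoters (70.6%), and the 15 genes with the largest ratios in 4 of 11 (36.4%). Among the rule genes with a promoter entry, *Egln3* and *Inhba* held a match and *Hilpda* and *Vegfa* held none in this window. A match is a description of letters, and binding was not measured.

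The ZsG-positive library held 5168 cell barcodes and 56510578 UMIs, and the ZsG-negative library 5437 barcodes and 47537541 UMIs. In both libraries 6 barcode sequences were shared, none of them a member. The 827 ZsG-positive members summed to 10609005 UMIs, with a median of 10417 UMIs per cell (lowest 2714, highest 49231) and 2758 genes. The 1317 reference cells summed to 13768963 UMIs, with a median of 9089 UMIs and 2590 genes. A threshold on raw UMIs favors deeper cells, and the depths are given because of that. Median shares of mitochondrial UMIs (3.07% against 3.14%) and of ribosomal protein UMIs (14.8% against 15.6%) lay close together.

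Members made up 24.2% (95% interval 22.8 to 25.7) of the 3415 *Lyz2*-positive cells of the ZsG-positive library and 2.79% (1.28 to 5.22) of the 323 of the ZsG-negative library. The limits on CD3 genes, *Ncr1* and cycling genes removed 498 of the 3415 cells and 50 of the 323. With 1 library per gate, the gate and the library cannot be told apart, and a share of cells can follow from the sort.

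The label of macrophages was checked against 12 markers of macrophages and monocytes, and all 12 were detected in members. *Lyz2*, among them, was required by the rule and is left out of the sum. The other 11 summed to 7628 CPM (UMIs of a gene per 1000000 UMIs of the same cells) in members and 7597 CPM in the reference. *Csf1r*, the receptor for the macrophage growth factor CSF1, stood at 236 CPM against 266 CPM, and *Cd68*, a lysosomal glycoprotein of macrophages, at 764 CPM against 679 CPM. The members were not of 1 type. By complement genes, 495 of 827 members (59.9%) had at least 10 UMIs over *C1qa*, *C1qb* and *C1qc*, which mark mature macrophages. Another 248 (30.0%) were below that and had at least 5 UMIs over the monocyte genes *Ly6c2*, *Vcan* and *Chil3*, and 84 (10.2%) fitted neither. In the reference the shares were 51.3%, 39.3% and 9.34%. The members are therefore called monocytes/macrophages with a high 5-gene sum, or members.

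The 5 rule genes chose the cells, and their levels are a description. The 5-gene sum had a median of 7 UMIs (25th percentile 4, 75th 14, highest 130). *Hilpda* (chr6:29272488-29275446 in GRCm38), an inhibitor of the lipase ATGL that protects lipid droplets, gave 55.3% of the 5-gene UMIs and was detected in 722 members (87.3%). Without it, 384 members would have fallen below the threshold. *Vegfa* (chr17:46016993-46032369) was detected in 437 members (52.8%), and *Egln3* (chr12:54178981-54203860), the HIF prolyl hydroxylase, in 278 (33.6%). *Inhba* (chr13:16011851-16031621), the activin A subunit, was detected in 277 members (33.5%), and a single cell held 76 of its UMIs. *Nos2* (chr11:78920787-78960254) was detected in 229 members (27.7%), so most cells chosen under a label that names *Nos2* had no *Nos2* UMI. All 5 genes were seen in 42 members, 4 in 111, 3 in 170, 2 in 275 and 1 in 229.

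Each rule gene was also read in cells chosen by the other 4, which leaves that gene out of the choice. *Egln3* stood at 52.6 CPM in 804 cells with a sum of the other 4 genes of at least 3, and at 3.10 CPM in 1357 cells with a sum of 0 (log2 ratio 4.08, 3.64 to 4.56). *Nos2* stood at 79.0 CPM against 7.58 CPM (log2 ratio 3.38, 3.09 to 3.68). *Hilpda* was at 611 CPM against 70.5 CPM (3.12, 3.03 to 3.20), and *Inhba* at 150 CPM against 17.4 CPM (3.11, 2.92 to 3.31). *Vegfa* had the smallest log2 ratio of the 5, at 95.6 CPM against 14.3 CPM (2.74, 2.53 to 2.96). Every rule gene was thus higher in cells picked by the remaining genes, the inflammatory enzyme *Nos2* and the secreted factor *Inhba* included. The rule was drawn up with earlier results of these data known, so these ratios are a description and not a test of a shared program.

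**Figure D1:**
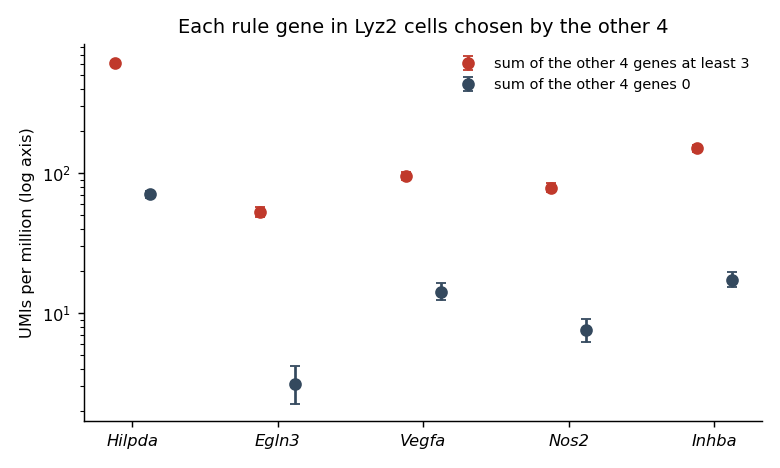
Level of each rule gene (CPM, log axis) in *Lyz2* cells of the ZsG-positive library with a sum of the other 4 rule genes of at least 3 (red) or of 0 (dark), with 95% Poisson intervals. The red point lies above the dark one for all 5 genes, from log2 2.74 for *Vegfa* to 4.08 for *Egln3*.

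Droplets also capture free RNA, so shares of cells with a UMI were set beside NK cells (at least 1 *Ncr1* UMI, no CD3 UMI, at most 1 *Lyz2* UMI) after thinning every cell to 3000 UMIs. Thinning left out 3 members, 17 reference cells and 147 NK cells. *Nos2* was then seen in 16.1% of members and 0.0703% of 1423 ZsG-negative NK cells (median 4788 UMIs before thinning), and *Inhba* in 21.5% and 0% (upper limit 0.259%). *Hilpda* was seen in 64.3% and 14.8%, and *Vegfa* in 29.7% and 25.7%, so a UMI of *Vegfa* was nearly as frequent in NK cells of the other gate. The members' own library held 32 NK cells deep enough to thin (10 were left out, median 3613 UMIs), too few for a close limit. There *Inhba* was seen in 6.25% (0.766 to 20.8), *Hilpda* and *Vegfa* each in 18.8% (7.21 to 36.4) and *Nos2* in 0% (upper limit 10.9%). Shares in NK cells could differ widely between the libraries. The chemokine *Cxcl2*, for example, was seen in 40.6% (23.7 to 59.4) of the 32 ZsG-positive NK cells and 0.843% of the 1423 ZsG-negative ones. Shares in ZsG-negative NK cells therefore do not measure free RNA in the members' own library.

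Across the transcriptome, 10971 genes had at least 20 UMIs over members and reference of the ZsG-positive library. Of these, 303 (2.76%) were at least 2-fold higher in members and 138 (1.26%) at least 2-fold lower, and only such genes are called higher or lower below. The median log2 ratio of all tested genes was -0.06 (quartiles -0.23 and 0.14). The interval lay above 0 for 289 of the 303 higher genes (95.4%) and below 0 for 87 of the 138 lower genes (63.0%). The share of all tested genes with an interval past 0 is not given, so counts of such intervals within a list have no background. Lower genes were mostly rare transcripts, with a median of 32 UMIs over both groups, and 14 had at least 100 UMIs. Their count also depended on the reference, and was 509 when the limits on CD3 genes, *Ncr1* and cycling genes were dropped there. Since the members were picked from the same cells, these counts describe the choice and are not a test of it.

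The hypoxia and HIF target list, which leaves out the 5 rule genes, had 15 of 26 tested genes higher and none lower, and its median log2 ratio was 1.26. *Ndrg1* (chr15:66929318-66969640), a hypoxia-induced gene tied to cell differentiation, stood at 176.5 CPM in members and 32.1 CPM in the reference (log2 ratio 2.46, 2.31 to 2.61), and had a UMI in 62.5% against 20.6% of cells. *Ero1l* (chr14:45283087-45318771), the oxidase that forms disulfide bonds in the endoplasmic reticulum, stood at 240 CPM against 48.3 CPM (2.31, 2.19 to 2.44). *Mxi1* (chr19:53310518-53375810), an antagonist of Myc, was at 81.6 CPM against 13.5 CPM (2.60, 2.37 to 2.83). *Bnip3* and *Bnip3l*, receptors for the autophagy of mitochondria, had log2 ratios of 2.07 and 1.27. *Egln1*, the main HIF prolyl hydroxylase, stood at 149.9 CPM against 60.4 CPM (1.31, 1.19 to 1.43).

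Others of the list were *Ddit4* (log2 ratio 2.10), an inhibitor of mTORC1, *Ak4* (2.11), a mitochondrial adenylate kinase, *Gys1* (1.80), glycogen synthase, and *P4ha2* (2.75), a collagen prolyl hydroxylase. *Bhlhe40*, *Ankrd37*, *Pfkfb3* and *Fam162a* lay between 1.11 and 1.48. *Adm*, the vasodilator adrenomedullin, had 36 UMIs in members and 1 in the reference (5.55, 2.98 to 10.89), so its ratio is loosely bounded. Not all targets were past 2-fold. *Mif*, *Pdk1* and *Ier3* had ratios of 0.89, 0.83 and 0.74, *Car9*, a carbonic anhydrase, had 0.08 (-0.45 to 0.60), and *Pfkfb4*, a regulator of glycolysis, had -0.22 (-0.56 to 0.11).

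In the glycolysis list 1 of 18 tested genes was past 2-fold, and the median log2 ratio was 0.76. That gene was *Slc2a1* (chr4:119108711-119137983), the glucose transporter GLUT1, at 214 CPM in members and 63.7 CPM in the reference (1.75, 1.63 to 1.86). The remaining steps of the pathway had smaller ratios. *Gpi1* had 0.97, *Hk2* 0.93, *Tpi1* 0.91, *Pgk1* 0.91, *Aldoa* 0.81, *Ldha* 0.77, *Eno1* 0.74 and *Gapdh* 0.62. *Pkm*, pyruvate kinase, had 0.51, and the phosphofructokinase *Pfkp* had 0.25 (0.18 to 0.33). The interval lay above 0 for 17 of the 18 genes, and *Pfkm*, the muscle form of phosphofructokinase, had -0.21 (-0.93 to 0.49). The summed level of the list was 11782 CPM in members and 7136 CPM in the reference.

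The HIF machinery itself had 1 of 10 tested genes higher, *Egln1*, and a median log2 ratio of 0.04. *Hif1a*, the oxygen-regulated subunit, stood at 166 CPM against 120 CPM (0.46, 0.36 to 0.56), and *Vhl* had 0.60 (0.34 to 0.87). *Arnt*, the constant partner, had 0.20 (-0.05 to 0.46). *Epas1*, which encodes HIF-2 alpha, had 1 UMI in members and 6 in the reference and was too rare to compare.

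Genes for vessel growth and matrix remodelling had 11 of 23 tested members of their list higher, with a median of 0.88. *Mmp12* (chr9:7344381-7369499), macrophage metalloelastase, had the largest ratio of the genes outside the rule seen in at least 10% of either group, at 167 CPM against 7.70 CPM (4.44, 4.15 to 4.73). It came from few cells, since 16.3% of members had a UMI and a single cell held 305 of the 1769 UMIs. *Thbs1* (log2 ratio 1.87), thrombospondin 1, an inhibitor of vessel growth, *Mmp13* (1.66), a collagenase, and *Spp1* (1.23), osteopontin, were also higher. So were coagulation factor X (*F10*, 1.32), tissue factor (*F3*, 1.14), the placental growth factor *Pgf* (1.23), and the EGF receptor ligands *Hbegf* (1.11) and *Areg* (1.01). *Vegfb* had -0.36 (-0.80 to 0.07). Among receptors and inhibitors of the VEGF and activin pathways 1 of 11 was higher, *Smad7* (1.30, 1.06 to 1.54), the inhibitory SMAD, while the VEGF receptors *Flt1* and *Nrp1* had 0.01 and -0.50.

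Of 12 genes of arginine and nitric oxide metabolism 1 was higher, and their median was -0.01. That gene was *Slc7a2* (chr8:40862396-40922308), the cationic amino acid transporter of activated macrophages, at 26.5 CPM in members against 3.49 CPM in the reference (2.93, 2.48 to 3.40), with a UMI in 16.6% against 3.04% of cells. The enzymes that rebuild arginine from citrulline had ratios near 0, *Ass1* 0.18 and *Asl* -0.05. *Gch1*, which makes the cofactor of nitric oxide synthase, had 0.04.

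Iron and heme genes had 3 of 15 higher and a median of 0.23. *Hmox1* (chr8:75093621-75100589), heme oxygenase, stood at 394 CPM against 123 CPM (1.67, 1.59 to 1.76), and *Mt2*, a metallothionein, had 1.51. *Fth1*, the ferritin heavy chain, was at 13391 CPM against 6944 CPM (0.95, 0.94 to 0.96), just under 2-fold. Among lipid genes 3 of 18 were higher (median 0.35), the cholesterol exporter *Abca1* (1.62) and the fatty acid binding proteins *Fabp4* (1.35) and *Fabp5* (1.26). *Plin2*, the coat protein of lipid droplets, had 0.75, and *Apoe* had -0.46. In the heat shock list 3 of 14 were higher (median 0.34), *Hspa1b* (2.23), *Hspb1* (2.03) and *Hspa1a* (1.58). *Hspa1a* and *Hspa1b* are near-identical copies, so the split of reads between them is uncertain, and *Hspb1* was seen in 2.78% of members.

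Inflammatory genes had 7 of 30 higher and a median of 0.46. *Lif*, a cytokine of the IL-6 family, had 39 UMIs against 5 (3.34, 2.00 to 5.04), the neutrophil chemokine *Cxcl3* had 168 against 27 (3.01, 2.42 to 3.66), and *Ptges*, prostaglandin E synthase, had 18 against 4 (2.55, 0.94 to 4.57). *Il12b*, *Saa3*, *Cxcl1* and the decoy receptor *Il1r2* had 1.52, 1.39, 1.17 and 1.15. Each of these genes was seen in few members, from 1.45% for *Ptges* to 17.3% for *Cxcl1*. The widely detected mediators had smaller ratios, 0.64 for *Cxcl2*, 0.83 for *Ptgs2*, 0.21 for *Tnf* and 0.18 for *Il1b*, and the lowest was *Ccl8*, a monocyte chemokine, with -0.71.

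No tested gene of the interferon gamma list was past 2-fold in either direction, and its median was -0.33. The interval lay below 0 for 18 of its 19 genes, but also for 65 of 94 nuclear genes of oxidative phosphorylation, so such intervals were common. The median was -0.18 against C1q-type reference cells, with 12 of 19 intervals below 0, and -0.62 against monocyte-type ones, where 2 of 19 genes were lower. *Cxcl9* and *Cxcl10*, chemokines that draw CXCR3-positive T cells, stood at 1467 CPM against 2292 CPM (-0.64, -0.67 to -0.62) and at 1623 CPM against 2470 CPM (-0.61, -0.63 to -0.58). *Cd274*, the checkpoint ligand PD-L1, was the exception with 0.40 (0.32 to 0.49). The interferon alpha/beta list (0 of 22, median -0.07), MHC class II (0 of 10, median -0.12) and MHC class I (0 of 13, median -0.15) had no gene past 2-fold. The interferon alpha/beta median turned with the cells compared, to 0.17 against C1q-type and -0.44 against monocyte-type reference cells, and that of MHC class II was -0.15 and 0.11.

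Lists of cell states held few genes past 2-fold. The monocyte list had 0 of 17 past 2-fold and a median of -0.38, and the C1q macrophage list had 1 of 19 (median -0.15), *Gpnmb* (2.13), a lysosomal glycoprotein. The lysosome list had 1 of 21 higher (median 0.13), the protease *Ctsk* (1.64). The stress response list had 1 of 18 (median -0.02), the pseudokinase *Trib3* (1.74), and the immediate early list had 1 of 20 (median 0.11), *Fosl1* (2.47). The checkpoint list had 1 of 17 (median 0.21), *Pdcd1lg2* (1.02), which encodes PD-L2, while *Lgals3* had 0.79. Among chemokine receptors 2 of 16 were higher (median 0.08), *Cxcr4* (1.34, 1.14 to 1.54), a known HIF target, and the tetraspanin *Cd9* (1.19).

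**Figure D2:**
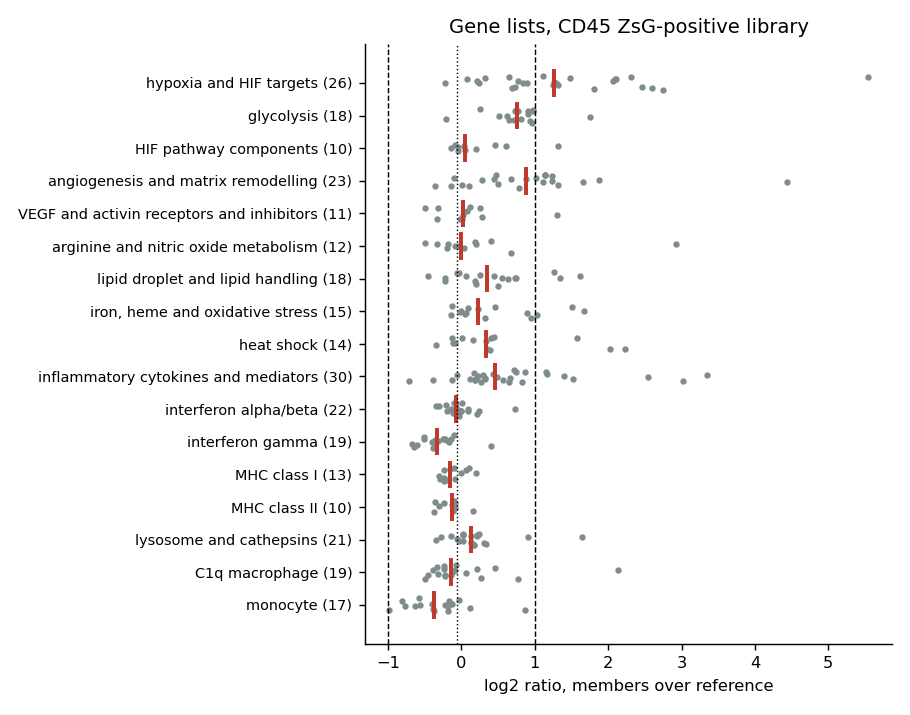
Log2 ratio of members over reference for each tested gene of 17 lists in the ZsG-positive library, with each list's median as a red bar, 2-fold limits dashed and the median of all genes (-0.06) dotted, and the number of genes tested in brackets. The hypoxia list has its median at 1.26 and the glycolysis list at 0.76, and the interferon gamma list has its at -0.33.

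The 15 genes with the largest ratios, among genes seen in at least 10% of either group, included genes outside the lists. *Rhov* (chr2:119269201-119271272), an atypical small GTPase, had 199 UMIs in members and 12 in the reference (4.43, 3.59 to 5.40). *Il7r* (chr15:9505788-9530176), the interleukin 7 receptor, stood at 105 CPM against 16.0 CPM (2.72, 2.51 to 2.93). T cell markers in the same cells summed to 14.99 CPM against 20.3 CPM. That sum includes *Cd3d*, *Cd3e* and *Cd3g*, which the rule limited in both groups, so low values were partly set by the choice of cells. *Mgarp*, a mitochondrial protein induced by hypoxia, had 2.94, *Pmp22*, a myelin and junction protein, 2.90, *Lonrf3* 2.17 and *Zfp395* 2.17.

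At the other end the ratios were smaller in size. Of the 15 genes with the smallest ratios only *Ripor2* (-1.05, -1.51 to -0.59) was past 2-fold, and the other 14 lay between -0.99 and -0.74. *Hp*, haptoglobin, had -0.99, *Lifr*, the LIF receptor, -0.95, *Tgtp2*, an interferon-induced GTPase, -0.93, and *Ighm*, the IgM heavy chain, -0.83. *Hp* followed the cell type in the reference: it stood at 135 CPM in monocyte-type and 13.2 CPM in C1q-type reference cells, and at 26.7 CPM in members. Among the 14 lower genes with at least 100 UMIs, picked after their values were seen, were the NK granzyme *Gzma* (-2.02), *Olfml3* (-1.80) and the dendritic cell receptor *Xcr1* (-1.02). Few cells held these transcripts. *Gzma* was seen in 1.93% of members and 2.28% of the reference, *Olfml3* in 1.81% and 4.56%, and *Xcr1* in 2.54% and 2.35%. For *Gzma* and *Xcr1* the shares of cells thus lay close together.

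Other cell types were read through marker lists. The rule allowed no *Ncr1* UMI and limited the CD3 genes in members and reference alike, so NK and T cell sums were partly set by the choice of cells. Neutrophil markers summed to 53.4 CPM in members and 38.2 CPM in the reference, mostly *Csf3r* (395 and 376 UMIs), and *Ly6g*, *Camp* and *Ngp* were at 0 in both. *S100a9* had 31 UMIs against 2, and 0.121% of members, a single cell, had any. Dendritic cell markers summed to 231 CPM against 218 CPM, with *Clec10a* the most abundant, and *Ccr7* was seen in 3.63% and 2.96% of cells. NK markers summed to 18.0 CPM against 28.5 CPM and B cell markers to 54.9 CPM against 91.4 CPM, of which *Ighm* gave 512 of 582 and 1179 of 1258 UMIs. Endothelial markers summed to 13.7 CPM against 11.5 CPM, with *Kdr* the most abundant, fibroblast markers to 12 and 7 UMIs, mast cell markers to 0 and 1 UMI and erythroid markers to 1 and 2 UMIs. Melanocyte markers, which would mark RNA of the tumor cells, summed to 64.7 CPM against 46.5 CPM. Their most abundant gene was *Mitf* (342 and 346 UMIs), which macrophages also express, while *Dct* had 133 and 110 UMIs and *Mlana* 42 and 26 UMIs. Of 6 tested melanocyte markers 2, *Syt4* (1.14) and *Mlana* (1.07), were past 2-fold, 5 had intervals above 0, and the median was 0.64. Against C1q-type and monocyte-type reference cells that median was 0.27 and 1.71. Whether RNA from other cells had a part in the differences was not tested.

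Members differed among themselves in step with the 5-gene sum. *Ndrg1* stood at 32.1 CPM in cells with a sum of 0, 46.7 CPM at 1 to 2, 79.8 CPM at 3 to 4, 132 CPM at 5 to 9 and 279 CPM at 10 or more. *Ero1l* went from 48.3 to 370 CPM and *Slc2a1* from 63.7 to 292 CPM over the same 5 groups of cells. Levels of these genes outside the rule were thus already above the reference in cells with 1 or 2 UMIs. The summed hypoxia list was at 2726, 3295, 4008, 4641 and 6252 CPM, and the glycolysis list at 7136, 8720, 9813, 11088 and 13707 CPM. The interferon gamma list was at 9879, 8932, 7573, 7793 and 6768 CPM. Median depth did not follow this order, with 9089, 10381, 10812, 10027 and 10654 UMIs per cell.

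Some genes were concentrated in the cells with the highest sums. *Mmp12* stood at 40.3 CPM in members with a sum of 3 to 4, 39.7 CPM at 5 to 9 and 355 CPM at 10 or more. *Il7r* went from 46.9 to 71.8 and 172 CPM in the same members, and *Fth1* from 8978 to 11874 and 17674 CPM. *Cxcl9* was at 1830, 1624 and 1089 CPM. *Spp1* kept no such order, at 547, 770.5 and 639 CPM. Just outside and just inside the threshold, the 252 cells with a sum of exactly 2 and the 142 cells with exactly 3 had *Ndrg1* at 58.0 and 76.1 CPM, *Bnip3* at 101.5 and 115.2 CPM and *Ero1l* at 85.7 and 105.1 CPM, so the threshold cut through a gradual range.

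**Figure D3:**
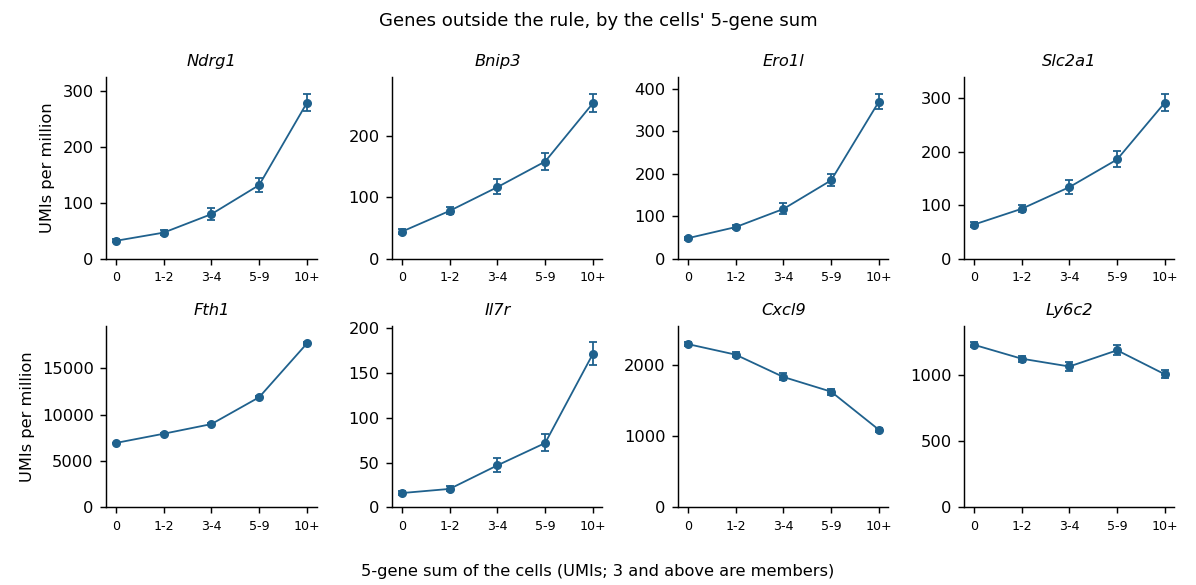
Levels (CPM, linear axes from 0, 95% Poisson intervals) of 8 genes outside the rule in *Lyz2* cells of the ZsG-positive library, grouped by their 5-gene sum. *Ndrg1*, *Bnip3*, *Ero1l*, *Slc2a1*, *Fth1* and *Il7r* are higher in each group than in the one before, and *Cxcl9* is lower in each, from 2292 to 1089.

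Members with many complement UMIs and members of the monocyte type both had the hypoxia genes. The summed hypoxia list stood at 4889 CPM in the 495 C1q-type members, 5455 CPM in the 248 monocyte-type members and 6382 CPM in the other 84, against 2766, 2814 and 2033 CPM in the matching reference cells. *Ndrg1* was at 164, 200 and 233 CPM in these members. *Hilpda* was at 453, 673 and 821 CPM, but it is a rule gene, and a fixed count of raw UMIs asks for a higher CPM in shallower cells. Median depth was 12984, 8134.5 and 7030.5 UMIs in the same order, so the values of *Hilpda* are a description only. Other genes went with the type. *Mmp12* was at 202 CPM in C1q-type and 26.2 CPM in monocyte-type members, while *Thbs1* was at 215 CPM and 505 CPM. The rule gene *Inhba* was at 122 CPM and 295 CPM, but the limit given for *Hilpda* applies to it as well.

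Against the 676 C1q-type reference cells alone, 370 of 10638 genes (3.48%) were at least 2-fold higher in members and 161 (1.51%) lower, and against the 518 monocyte-type reference cells 603 of 10271 (5.87%) were higher and 165 (1.61%) lower. Both comparisons use the same members. The hypoxia list had 14 of 26 genes higher with a median of 1.27 in the first and 17 of 26 with a median of 1.18 in the second. For glycolysis the medians were 0.78 and 0.80. *Ndrg1* had 2.64 and 2.24, and *Slc2a1* 1.99 and 1.31. The C1q macrophage list had medians of -0.60 and 1.29, and the monocyte list 0.55 and -1.20.

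*Nos2* divided the members into 229 with a UMI and 598 without, at median depths of 10654 and 10328 UMIs. In members with *Nos2* its median was 3 UMIs and its highest 21, and members without a UMI can hold cells that express the gene at a low level. Over all genes, 152 of 9831 (1.55%) were at least 2-fold higher in members with a *Nos2* UMI than in members without, and 171 (1.74%) lower. The genes given for this split were picked after their values were seen. *Tnfsf15*, a cytokine of the TNF family, had 82 UMIs in the 229 cells with *Nos2* and 28 in the 598 without (log2 ratio 2.80, 2.17 to 3.47). *Slc7a2*, which brings arginine into the cell, had 2.02 (1.66 to 2.38). *Nos2* is itself a rule gene, and the other rule genes also had intervals above 0 in this split. Both sides were not matched for the summed count of the rule genes, with which *Ndrg1* rose among members. Several genes that were higher in members than in the reference were also higher in members with *Nos2* than in those without. Whether these differences went with *Nos2* itself or with the summed count was not tested. *Ndrg1* stood at 289 CPM with and 129 CPM without *Nos2* (1.16, 1.03 to 1.29), *Hmox1* at 636 CPM and 292 CPM (1.12, 1.04 to 1.21), and *Mmp12* at 320.3 CPM and 102 CPM (1.65, 1.51 to 1.79). *Mgarp* had 1.61 and *Rhov* 1.47. *Spp1* had -0.37 (-0.45 to -0.29) and *Cxcl9* 0.37 (0.33 to 0.42), both within 2-fold. The hypoxia list had 4 of 26 genes higher (median 0.49), glycolysis 0 of 18 (median 0.37) and interferon gamma 0 of 19 (median 0.26).

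The dendritic cell genes *Ccl22* (-3.02), *Fscn1* (-2.26) and *Ccr7* (-2.01) were lower with *Nos2*, and each was seen in under 5% of either group. In the whole dendritic cell list 4 of 11 tested genes were lower, 1 had an interval above 0, and the median was -0.56. Of 6 tested melanocyte markers 5 were past 2-fold, *Dct* with 81 UMIs against 52 (1.89, 1.37 to 2.42), *Mlana* with 26 against 16 (1.95), *Pmel* with 45 against 34 (1.65), *Tyrp1* with 29 against 26 (1.41) and *Syt4* with 12 against 10 (1.51). *Mitf* had 0.27. The part of tumor RNA in the *Nos2* comparison was not tested.

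The ZsG-negative library held 9 members among 273 *Lyz2* cells within the limits, so each value rests on few UMIs. Their 5-gene sums ran from 3 to 45 with a median of 4, and *Hilpda* was seen in 5 of them, *Egln3*, *Vegfa* and *Inhba* in 3 each, and *Nos2* in 0. The hypoxia list summed to 2947 CPM in these members and 1535 CPM in the 233 reference cells of that gate (275 and 3052 UMIs, log2 ratio 0.94, 0.76 to 1.12), and the glycolysis list to 5443 CPM and 2875 CPM (0.92, 0.79 to 1.05). Dendritic cell markers also differed there, at 761 CPM (594 to 960) against 336 CPM (311 to 363), led by *Cd209a*, and T cell markers stood at 118 CPM (58.8 to 211) against 53.8 CPM (44.1 to 65.0). Their part in these values was not tested. *Bnip3* stood at 85.7 CPM (8 UMIs, 37.0 to 169) against 8.05 CPM (4.60 to 13.1). *Ndrg1* had 2 UMIs in the 9 cells and was not distinguishable from that reference (34.7 CPM) at this depth.

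The T cell sort held 379 *Lyz2*-positive cells among 2694 cells within the same gene and mitochondrial limits, although it was gated on T cells. Both libraries of that sort were taken as 1 sample, because the sources give opposite orders for them. The rule picked 89 members there (23.5% of the *Lyz2* cells, 19.3 to 28.1) and 155 reference cells. Of 7978 tested genes 284 (3.56%) were at least 2-fold higher and 421 (5.28%) lower. T cell markers in these members summed to 23.3 CPM, against 25.7 CPM in their reference, and NK markers to 30.0 CPM against 5.04 CPM, with *Gzma* at 24 UMIs the most abundant in members. The limits on CD3 genes and *Ncr1* held for both groups there too. Neutrophil markers summed to 167 CPM against 331 CPM, led by *S100a9* (89 and 261 UMIs). Melanocyte markers summed to 84.0 CPM (70.0 to 100.04) against 46.4 CPM (37.4 to 56.9), led by *Mitf* (90 and 44 UMIs), B cell markers to 38.0 CPM against 97.8 CPM, led by *Ighm*, and endothelial markers to 9.34 CPM against 22.2 CPM, led by *Kdr*. These members were also deeper, with a median of 14849 UMIs against 10863, and the part of depth or of other cells was not tested.

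Genes past 2-fold in the CD45 sort largely kept their direction in those cells. For the 5 rule genes the direction was fixed, since the rule set them to 0 in both references. They count among the higher genes of each sort. Of 138 genes higher in the CD45 sort and tested in both, 132 (95.7%) had a ratio above 0 in the T cell sort. Of the 138, 101 (73.2%) were also past 2-fold there. Among all 7851 genes tested in both, 66.1% had the same sign. Of the 7978 genes tested in the T cell sort, 3.56% were at least 2-fold higher and 5.28% at least 2-fold lower. Of 10 lower genes 8 had the same sign and 6 were past 2-fold. All 15 genes with the largest ratios were past 2-fold higher. *Mmp12* stood at 145 CPM in those members and 1.51 CPM (3 UMIs) in their reference (6.58, 5.01 to 8.87). *Ndrg1* was at 111 CPM against 27.7 CPM (2.00, 1.55 to 2.46), *Il7r* at 167 CPM against 19.2 CPM (3.12, 2.62 to 3.65) and *Hmox1* at 700 CPM against 106 CPM (2.72, 2.50 to 2.94). *Rhov* had 26 UMIs against 0, a log2 ratio of at least 3.52 when 3 counts are put in place of 0.

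The list medians in the T cell sort were 1.52 for hypoxia (16 of 23 genes higher and 1, *Pfkfb4*, lower), 1.09 for glycolysis (11 of 16 higher), -0.81 for interferon gamma (5 of 19 lower), -0.77 for interferon alpha/beta (8 of 23 lower), -0.91 for monocyte genes (7 of 15 lower) and -0.70 for MHC class II (2 of 9 lower). Dendritic cell markers moved with these, at 158 CPM in those members and 299 CPM in their reference, with 5 of 8 tested markers lower and a median of -1.79, and their part was not tested. *Ldha* and *Gapdh* had 1.04 and 1.01 there, and *Cxcl10* stood at 1228 CPM against 3466 CPM. Of the 15 genes with the smallest ratios in the CD45 sort 14 had a ratio below 0, and the exception was *Cdc14a*, a phosphatase, with 0.06. These cells are separate droplets and a separate sort, yet the difference in size between both sorts has no replicate and was not tested.

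**Figure D4:**
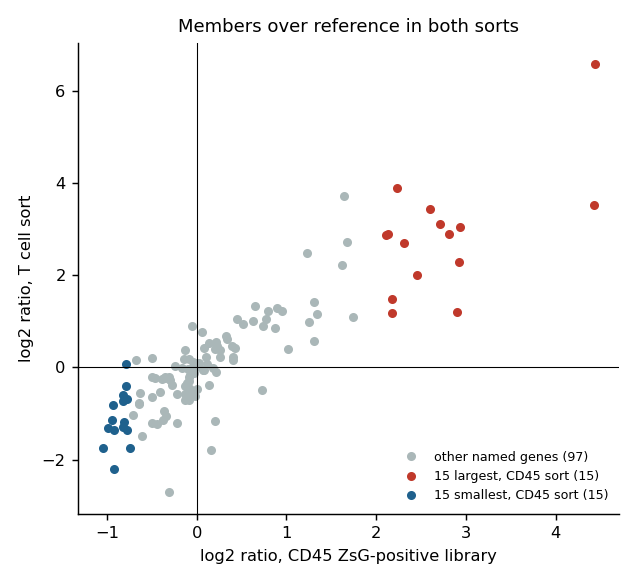
Log2 ratio of members over reference in the CD45 ZsG-positive library (x) and in the T cell sort (y) for 127 named genes tested in both, with the 15 largest (red) and 15 smallest (blue) of the CD45 sort marked. All red points lie above 1 on the y axis (the one for *Rhov* is a lower bound), and 14 of the 15 blue points lie below 0.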

How the data were processed

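UMI counts per gene and cell barcode were deposited as 2 matrices of 32285 (CD45 sort) and 31053 (T cell sort) genes. The authors aligned reads to mm10 with Cell Ranger, version 6.1.2 in the submitters' processing notes and the T cell header but 7.0.0 in the CD45 header, and joined the libraries of a sort. No source used here states whether depth was evened out. IDs sharing 1 of 38 symbols were summed. Gene positions came from GENCODE vM21 (GRCm38) and promoters from RefSeq.

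UMIs were summed over cells and scaled to CPM (numpy 2.4.6 and pandas 2.3.3 in Python 3.11.15; intervals from scipy 1.17.1; figures from matplotlib 3.10.9). A gene at 0 in a group was set to 3 counts there, giving a bound. Members and lists were chosen with earlier results of these data known. Named genes were the 15 largest and 15 smallest ratios (a UMI in at least 10% of either group, at least 50 UMIs), the rule genes, and in each list the 3 most abundant and both extremes. *Mx1*, *Mx2* and *Cxcl11* were not analysed here, and some genes are not reported here. No doublet caller was run. The limits on other lineages and an alternative without the top 5% of cells by UMIs stand in for it. Alternatives also changed the reference, depth, threshold, mitochondrial limit, gene filter, scaling (TMM of edgeR 4.0.16 in R 4.3.3), gates and averaging. The ratio steps were tested on simulated data.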

Additional observations from a re-analysis of the deposited data

Results flagged for a closer look

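Among the genes named by rule, 7 had ratios of members over reference on opposite sides of 0 in the CD45 ZsG-positive library and in the T cell sort, with both intervals away from 0. The difference between the sorts was not tested, and each sort gave 1 sample. *Lpl*, lipoprotein lipase, had a log2 ratio of 0.90 (0.81 to 0.98) in the T cell sort and -0.05 in the CD45 sort. *Rsad2*, an antiviral protein induced by interferon, had -0.48 (-0.64 to -0.32) and 0.73. *H2-Q6*, whose reads may be split among similar MHC genes, had -1.16 (-1.88 to -0.49) and 0.20. *Blvrb*, biliverdin reductase B, had 0.39 (0.21 to 0.56) and -0.14. The rest were small, with *Tgfbi* at 0.17 and -0.14, the chaperone *Hspa5* at 0.19 and -0.09, and *B2m* at -0.0513 and 0.0686. With both CD45 libraries together, *Lpl* (0.11) and *Blvrb* (0.01) were above 0 in the CD45 sort too, so the opposite signs of these genes ended there, and *Lpl* also turned positive under TMM (0.0023) and without the limits on the reference (0.0026).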

How the results depend on the processing

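The count of higher genes (303) lay between 286 and 401 under all alternatives except the filters on low counts, with 151 genes at a minimum of 100 UMIs and 1614 at a minimum of 1. The count of lower genes (138) was less stable: 509 without the limits on lineage and cycling genes in the reference, 271 with members chosen by rate, 213 with a sum of at least 5, 14 and 1296 with minimums of 100 and 1 UMIs, 262 with both CD45 libraries and 255 with means of each cell's CPM. Higher genes were 68.7% of all calls, 74.9% under TMM, 35.97% without the reference limits and 52.2% with both libraries. The median of the hypoxia list (1.26) was 1.47 by rate, 1.41 with a sum of at least 5 and 1.40 with means of cells, and that of glycolysis (0.76) stayed between 0.73 and 0.87. No named gene past 2-fold changed sign, but 26 named genes within 2-fold did in at least 1 alternative. These included *Hp* (0.34) and *Cd177* (0.03) between C1q-type cells, *Flt1* (down to -0.08) and, with both CD45 libraries, *Lpl* (0.11) and *Blvrb* (0.01). The member share of ZsG-positive *Lyz2* cells (24.2%) was 21.2% by rate, 17.2% with a sum of at least 5 and 28.5% after thinning with a sum of at least 1, and that of ZsG-negative cells (2.79%) was 1.24% with a sum of at least 5. Of 31 named genes past 2-fold 28 stayed so in each of the 13 alternatives that tested them (genes under 100 UMIs were not tested at that minimum), and *Ripor2*, *Pdcd1lg2* and *Tm7sf2* did not. Limited to C1q-type cells on both sides, an alternative chosen after seeing the data, the counts were 302 and 135 and the medians 1.22 and 0.73. No paired analysis was possible because each gate gave 1 library and the result comes from no test. Depth limits the lower genes, of which 14 of 138 had at least 100 UMIs.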

Other observations

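Some lists were added after the data had been seen. Cholesterol synthesis had 1 of 24 genes past 2-fold lower in members, *Tm7sf2* with 26 UMIs against 68, and a median log2 ratio of -0.32. The interval lay below 0 for 17 of the 24, but also for 23 of 35 ribosome biogenesis genes, so this count does not set the list apart. *Fdps*, which makes farnesyl diphosphate, stood at 148 CPM against 209 CPM (-0.50, -0.59 to -0.41). The summed level of the list was 1339 CPM at a 5-gene sum of 0, 1399 CPM at 1 to 2, 1391 CPM at 3 to 4, 1077 CPM at 5 to 9 and 839 CPM at 10 or more. Against C1q-type reference cells the median was 0.06 and against monocyte-type ones -0.70, so the value depended on the cell type compared. Ribosome biogenesis had 0 of 35 genes past 2-fold and a median of -0.29.

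Of 94 tested nuclear genes of oxidative phosphorylation the median was -0.15, and 1 was past 2-fold, *Cox4i2*, a cytochrome oxidase subunit known from hypoxic cells, with 95 UMIs against 32 (1.95, 1.35 to 2.57). Its usual counterpart *Cox4i1* had -0.12 (-0.15 to -0.08).

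Further genes past 2-fold higher, named here for their abundance after their values were seen, were *Basp1*, a membrane-bound signaling protein (939 CPM against 338 CPM, 1.47, 1.42 to 1.52), and *Id2*, an inhibitor of helix-loop-helix factors (462 CPM against 172 CPM, 1.42, 1.35 to 1.49). *Clec4d*, a C-type lectin receptor, had 1.48, the protease *Adam8* 1.31, *Emp1* 1.30, *Rgcc* 1.98 and *Gdf15*, a stress cytokine, 1.42. Coagulation factor VII, *F7*, had 1.17 (0.96 to 1.37), beside factor X and tissue factor above.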
